A study of Homo sapiens with 40 samples.

Results

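The replication-dependent histone genes are the multi-copy genes that supply the linker histone H1 and the core histones H2A, H2B, H3 and H4 during DNA replication. They were chosen by symbol, whatever their counts: H1-1 to H1-6, and H2AC, H2BC, H3C or H4C followed by a number with no further letter. Of 60664 genes in the deposited table, 69 met this rule: 6 for H1, 17 for H2A, 18 for H2B, 13 for H3 and 15 for H4. A filter on low counts left 64 of them for testing, namely 6, 15, 17, 12 and 14 of these types. H2AC7, H2AC25, H2BC26, H3C4 and H4C7 were not tested.

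These genes are clustered, mostly lack introns and are transcribed when cells enter S phase. Their mRNAs end in a conserved stem-loop in place of a poly(A) tail. The stem-loop is bound by SLBP, takes part in the cutting of the transcript by the U7 snRNP, and couples the stability of the mRNA to ongoing DNA synthesis. H1 binds linker DNA between nucleosomes, H2A and H2B form the outer dimers of the nucleosome, and H3 and H4 form the tetramer at its centre.

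RNA was sequenced from 786-0, an established clear cell renal carcinoma line, in 40 libraries that formed 20 groups of 2 replicates. SETD2, the enzyme that places H3K36 trimethylation, was knocked out (KO) in one form of the line and intact (WT) in the other. Each form was taken at days 5, 16 and 26 under DAC+BMN, DAC or BMN, and untreated at day 0 (control). The doses were 100 nM for DAC and 10 nM for BMN, alone and together. DAC is decitabine, a deoxycytidine analogue that depletes DNA methyltransferases, and BMN is BMN673 (talazoparib), an inhibitor of PARP enzymes. There was 1 line of each genotype and the labels do not say whether it was a clone, so the knockout and other differences between the lines cannot be told apart. There were no untreated cells after day 0, so drug and time in culture cannot be told apart. The labels do not say that replicates were separate cultures, so every p-value measures only the spread between these libraries, which may be technical.

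Libraries held 17833960 to 22631101 counts, of which the histone genes took 0.162% to 0.818% (median 0.532%). Whether poly(A) RNA was selected is not stated in the labels. Levels are given as CPM, a library's counts scaled to a fixed total with TMM factors, which allow for a few genes taking much of a library. All 7 renal carcinoma markers were present (PAX8 at 209.9 CPM or more in every library), and 7 markers of blood, endothelial, liver and muscle cells stayed at or below 3.02 CPM, each with 0 in at least 1 library. SETD2 RNA was 141 and 113 CPM in KO controls, against 149 and 129.6 CPM in WT controls (log2 fold change -0.13 ± 0.07, adjusted p = 0.198). The labels do not say where the gene was edited, so a count over the whole gene does not check the knockout. Replicates differed most in the WT control and in WT DAC and WT BMN at day 26.

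Of the 69 genes, 55 lie on chromosome 6, 13 on chromosome 1, and 1, H4C16, on chromosome 12 (GRCh38, Ensembl 104). The chromosome 6 genes form a group of 34 at chr6:25726063-26285638 and a group of 21 at chr6:27125897-27893891. On chromosome 1, 11 lie at chr1:149782689-149887965, and H2AC25 and H2BC26 at chr1:228456979-228460470. Copies of one histone can be near-identical. In 15 of the 69 genes over 50% of the 50-base words of the transcript also occurred in a transcript of another gene, and in H3C4, H3C14, H3C15, H2AC18 and H4C12 all of them did. In 29 genes, among them all 6 H1 genes, no word was shared. Values of single copies among the 15 are uncertain, so sums per histone type are given beside single genes. A sum rejoins reads split between copies but does not regain reads that were lost. Exons that overlap another gene on the same strand also lose reads, over 85.3% of the exon length in H2AC7, 96.6% in H3C4, 71.0% in H2AC17 and 40.3% in H3C12.

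Per kilobase of exon, as a mean over all 40 libraries, H1-2 was the highest H1 gene with 709 CPM per kb, followed by H1-4 with 453 and H1-5 with 352. H1-2 led in all 20 groups, and H1-5 was above H1-4 in 5 of the 20, KO controls among them. H2AC20 led the H2A genes with 353 CPM per kb, H2BC12 the H2B genes with 327, H3C2 the H3 genes with 484 and H4C3 the H4 genes with 354. These genes led their type per kb in 19, 17, 20 and 18 of the 20 groups, and H2AC8, H2BC17 and H4C4 led in the others. H2BC12 is one of the 15 uncertain copies, with 74.1% of its words shared. The order per kb also depends on the annotated lengths, which can run past the stem-loop. After it lie 1761 of 2250 bases in H2AC11, 1729 of 2194 in H2BC21 and 1022 of 1487 in H4C5. If their mRNAs end at the stem-loop, the values per kb of these 3 genes are too low, and the leaders of H2A, H2B and H4 can differ. Not divided by length, the highest of each type over all libraries were H1-2, H2AC11, H2BC21, H3C2 and H4C5. Taken group by group, H1-2, H2BC21 and H3C2 were highest in all 20 groups, H2AC11 in 15 and H4C5 in 17, with H2AC20 and H4C3 highest in the others. The 5 genes highest over all libraries are followed through the comparisons. H1-2 held 40.9% of the H1 signal and H3C2 39.1% of the H3 signal, while H2AC11, H2BC21 and H4C5 held 20.4%, 16.7% and 22.5% of theirs.

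The 3′ stem-loop sets these mRNAs apart from those of other genes, and a few forms are shown because they recur across the copies. A 16-base stem-loop was found in the GENCODE 29 transcripts of 30 of the 69 genes, and for the other 39 no match lay within the annotated transcript. The form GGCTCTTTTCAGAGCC was held by 17 genes, all of H2A, H2B or H3, and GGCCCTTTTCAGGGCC by 5 genes, all of H4. In these examples, written as DNA letters, the stem-loop is in capitals.
H2AC8: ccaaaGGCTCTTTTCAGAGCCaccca
H2BC21: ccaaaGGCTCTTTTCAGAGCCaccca
H2BC7: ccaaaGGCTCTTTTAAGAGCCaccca
H4C5: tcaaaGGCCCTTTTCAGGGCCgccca
H4C9: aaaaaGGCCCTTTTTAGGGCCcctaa
Of the other forms, that of H2BC7 was held by 4 genes and that of H4C9 by 3.

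RefSeq promoter windows (GRCh38.p14, 250 bases before to 50 after the start) were at hand for 64 of the 69 genes, without H2AC12, H3C11, H3C12, H4C1 and H4C3. Motifs were searched on both strands. The octamer ATTTGCAT was in 25 of these windows (39.1%), against 1.77% of all 35116 windows. It was held by 14 of 18 H2B and 11 of 16 H2A windows and by 0 H1, H3 or H4 windows. TATAAA was in 67.2% of the histone windows, against 11.5% of all windows. CCAAT was in 84.4%, against 34.6%, and the H4 genes differed from the other types, with 3 of 13 windows (H4C6, H4C9 and H4C13). The CG dinucleotide, the site of DNA methylation, had a median of 11.5 per histone window and 14 over all windows.

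Before any drug most histone genes were at like levels in the 2 lines, and a few copies differed manyfold. At day 0, 17 of 64 genes were higher in KO cells and 3 lower, while 13.4% of all 22527 genes tested were higher and 13.9% lower. The median log2 fold change was 0.05 over the histone genes and -0.01 over all genes. The sum of all 69 was 8157 and 8482 CPM in KO controls, against 7168 and 7845 CPM in WT controls, with no overlap (log2 ratio 0.15). H1-2 had 711 and 732 CPM in KO controls, against 691 and 793 CPM in WT controls, overlapping (-0.04 ± 0.06, adjusted p = 0.700). H2AC11, H2BC21 and H3C2 had log2 fold changes of 0.11, 0.04 and -0.03 and did not pass the test either. H4C5 passed with 298 and 230.1 CPM in KO, against 237 and 194 CPM in WT, overlapping (0.30 ± 0.09, adjusted p = 0.0167). That call was lost without KO control replicate 1 (adjusted p = 0.590) or WT control replicate 2 (adjusted p = 0.290), and its p ran over 0.000407 to 0.590 across its alternatives.

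H1-1, H4C13, H3C3 and H2BC3 had the largest rises in KO cells. H1-1, a somatic linker histone, had 172 and 198 counts in KO controls, against 2 and 1 counts in WT controls, a ratio of 132-fold (95% exact interval 44.7 to 641). This interval, like the others of its kind here, covers counting error only. H4C13 had 30.8 and 26.2 CPM in KO controls, against 0.655 and 0.414 CPM in WT controls (5.71 ± 0.21, adjusted p = 8.02e-21). H3C3 had 72.3 and 85.7 CPM in KO, against 12.1 and 14.9 CPM in WT (2.55 ± 0.12, adjusted p = 8.95e-18). In all of these genes both KO libraries lay above both WT libraries. H2BC3 had 9.01 and 8.71 CPM in KO, against 2.52 and 1.76 CPM in WT (2.04 ± 0.16, adjusted p = 3.96e-12).

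H4C9, H3C6 and H4C16 were lower in KO cells. H4C9 had 3 and 2 counts in KO controls, against 208 and 188 counts in WT controls, lower by a ratio of 74.2-fold (95% exact interval 31.5 to 229.8). H3C6 had 6.26 and 6.12 CPM in KO, against 11.4 and 11.5 CPM in WT (-0.89 ± 0.14, adjusted p = 8.13e-06). Both were without overlap. H4C16 fell by less (-0.26 ± 0.09, adjusted p = 0.0232), a call lost without KO control replicate 2 (adjusted p = 0.150), WT control replicate 1 (adjusted p = 0.0585) or WT control replicate 2 (adjusted p = 0.0754), with a range of 0.00342 to 0.209. H4 copies thus differed in opposite directions, while the H4 sum was 1208 and 1164 CPM in KO controls, against 1112 and 1057 CPM in WT controls.

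At day 5, KO cells under both drugs had the lowest histone RNA of the study. The sum of all 69 genes was 1604 and 1626 CPM in KO DAC+BMN cells, against 8157 and 8482 CPM in KO controls, 5.15-fold lower by the means. In WT cells it was 3462 and 4025 CPM under DAC+BMN, against 7168 and 7845 CPM in WT controls, 2.01-fold lower. Neither line overlapped its control. DAC alone gave 4313 and 4351 CPM in KO and 5304 and 5037 CPM in WT cells, 1.92-fold and 1.45-fold below the controls, again without overlap. BMN alone gave 6085 and 6168 CPM in KO cells, 1.36-fold below the control without overlap, and 7138 and 7247 CPM in WT cells, where the libraries overlapped the controls. All comparisons of one line with its control share the same 2 control libraries. In bulk RNA, fewer cells in S phase and less histone RNA per cell cannot be told apart.

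**Figure D1:**
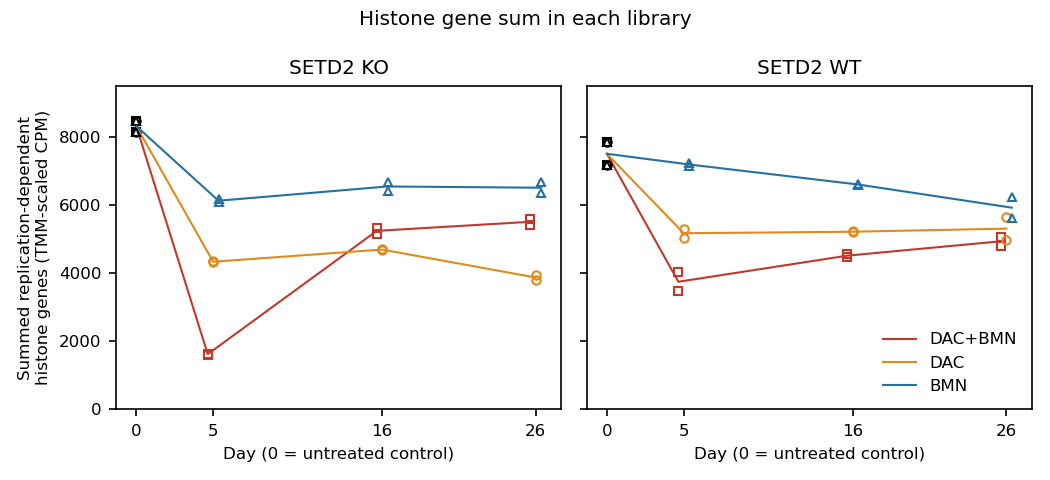
Summed TMM-scaled CPM of the 69 replication-dependent histone genes in each library (points) by day, for KO (left) and WT (right) cells, with lines through the means of 2 replicates for each treatment and black points for the untreated control at day 0. The KO DAC+BMN libraries at day 5, at 1604 and 1626 CPM, lie below all others.

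Under DAC+BMN, 57 of 64 genes fell in KO cells and 4 rose, against 22.2% and 27.1% of all genes tested. The median log2 fold change was -2.35, against 0.08 over all genes. Of the 20 groups, this one had the lowest mean for 52 of the 64 genes, a count that was not made over all genes. The genes that fell were 4 of 6 H1, 14 of 15 H2A, 15 of 17 H2B, 12 of 12 H3 and 12 of 14 H4 genes. By position, 25 of 31 tested genes of the first chromosome 6 group fell, 20 of 21 of the second, all 11 on chromosome 1, and H4C16 on chromosome 12.

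The H1 sum was 355 and 369 CPM in KO DAC+BMN cells, against 1869 and 1950 CPM in KO controls. H1-2 had 151 and 156 CPM in KO DAC+BMN cells, against 711 and 732 CPM in KO controls (-2.23 ± 0.06, adjusted p = 3.24e-24). H1-3, with the largest fall of any histone gene, had 14.4 and 14.3 CPM, against 124 and 129 CPM (-3.14 ± 0.09, adjusted p = 9.53e-25). Treated libraries lay close together and far below the controls. H1-5 had 66.3 and 65.8 CPM, against 549 and 559 CPM (-3.07 ± 0.08, adjusted p = 5.28e-26).

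The H2A sum was 301 and 297 CPM in KO DAC+BMN cells, against 1539 and 1653 CPM in KO controls, and the H2B sum 493 and 508 CPM, against 2548 and 2496 CPM, 5.34-fold and 5.04-fold lower. H2AC11 had 60.5 and 59.6 CPM, against 335 and 358 CPM (-2.53 ± 0.09, adjusted p = 2.24e-22). H2BC21 had 75.1 and 75.1 CPM, against 368 and 357 CPM (-2.27 ± 0.06, adjusted p = 5.40e-25). Neither gene nor sum overlapped. H2BC6, a low copy, had 2.93 and 4.41 CPM, against 4.16 and 3.25 CPM, overlapping, and did not pass.

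The H3 sum was 188 and 194 CPM in KO DAC+BMN cells, against 994 and 1219 CPM in KO controls, and the H4 sum 268 and 259 CPM, against 1208 and 1164 CPM, 5.81-fold and 4.50-fold lower. H3C2 had 70.2 and 70.9 CPM, against 378 and 459 CPM (-2.57 ± 0.11, adjusted p = 8.86e-20). H4C5 had 64.0 and 63.6 CPM, against 298 and 230.1 CPM (-2.05 ± 0.10, adjusted p = 4.85e-18). No group overlapped in these sums and genes. H3C11 and H3C12 fell most among the H3 genes (-3.09 ± 0.14, adjusted p = 5.73e-19, and -3.06 ± 0.14, adjusted p = 3.86e-19).

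In WT cells DAC+BMN lowered 51 of 64 genes and raised 7, against 18.2% and 21.2% of all genes, with a median log2 fold change of -0.84. The genes that fell in both lines numbered 50, while 12.7% of all genes tested fell in both. H1-2 had 336 and 367 CPM in treated WT cells, against 691 and 793 CPM in WT controls (-1.08 ± 0.06, adjusted p = 3.48e-16). H3C2 had 166 and 192 CPM, against 374 and 481 CPM (-1.25 ± 0.10, adjusted p = 3.26e-12). H1-5 had 104 and 119 CPM, against 328 and 391 CPM (-1.69 ± 0.07, adjusted p = 1.17e-19), and with H1-3 (-1.55 ± 0.08, adjusted p = 9.63e-18) it fell most. None of these genes overlapped its control. H2AC11, H2BC21 and H4C5 fell by log2 fold changes of -1.13 ± 0.08, -0.76 ± 0.06 and -0.76 ± 0.10.

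DAC alone lowered 50 of 64 genes in KO cells and raised 8, against 16% and 19.5% of all genes. In WT cells it lowered 41 and raised 9, against 12.2% and 15.6%. All 41 genes that fell in WT cells were among the 50 that fell in KO cells. Over all genes, 75.6% of those that fell in WT also fell in KO, 58.0% of those that fell in KO also fell in WT, and 9.25% of those tested fell in both. The median log2 fold changes were -0.87 in KO and -0.41 in WT cells. H1-2 had 399 and 402 CPM in KO DAC cells, against 711 and 732 CPM in KO controls (-0.85 ± 0.06, adjusted p = 2.03e-13). In WT cells it had 494 and 479.9 CPM under DAC, against 691 and 793 CPM (-0.61 ± 0.06, adjusted p = 8.34e-10). H4C1 fell most in each line. It had 15.99 and 13.7 CPM in KO DAC cells, against 39.99 and 45.2 CPM in KO controls (-1.52 ± 0.12, adjusted p = 1.70e-12), and 16.2 and 15.2 CPM in WT DAC cells, against 30.5 and 35.6 CPM in WT controls (-1.07 ± 0.12, adjusted p = 6.75e-09). Neither gene overlapped its control in either line. The call for H4C5 in WT cells (-0.32 ± 0.09, adjusted p = 0.00905) was lost without WT control replicate 1 (adjusted p = 0.242) or WT DAC replicate 2 (adjusted p = 0.0734), over a range of 0.000379 to 0.242.

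BMN alone lowered 38 of 64 genes in KO cells, against 6.65% of all genes, and the count was 25 without KO control replicate 2 or without KO BMN replicate 1. It raised 0, against 5.07% of all genes, with 0 higher at an unadjusted p under 0.05 and 0 by DESeq2. In WT cells edgeR called 0 of 64 genes, against 0.186% of all genes, with 3 at an unadjusted p under 0.05, all lower, and 0 by DESeq2. The median log2 fold changes were -0.39 in KO and -0.02 in WT cells. H1-2 had 466 and 493 CPM in KO BMN cells, against 711 and 732 CPM in KO controls, without overlap (-0.59 ± 0.06, adjusted p = 2.64e-08). The WT values were 685 and 663 CPM under BMN, against 691 and 793 CPM (-0.14 ± 0.06, adjusted p = 0.679). H2AC21 and H2BC7 were among the largest falls in KO cells (-0.68 ± 0.10, adjusted p = 1.90e-05, and -0.68 ± 0.09, adjusted p = 2.14e-06). The H3C2 call (-0.44 ± 0.10, adjusted p = 0.00347) was lost without KO control replicate 2 (adjusted p = 0.118, range 9.26e-08 to 0.118).

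**Figure D2:**
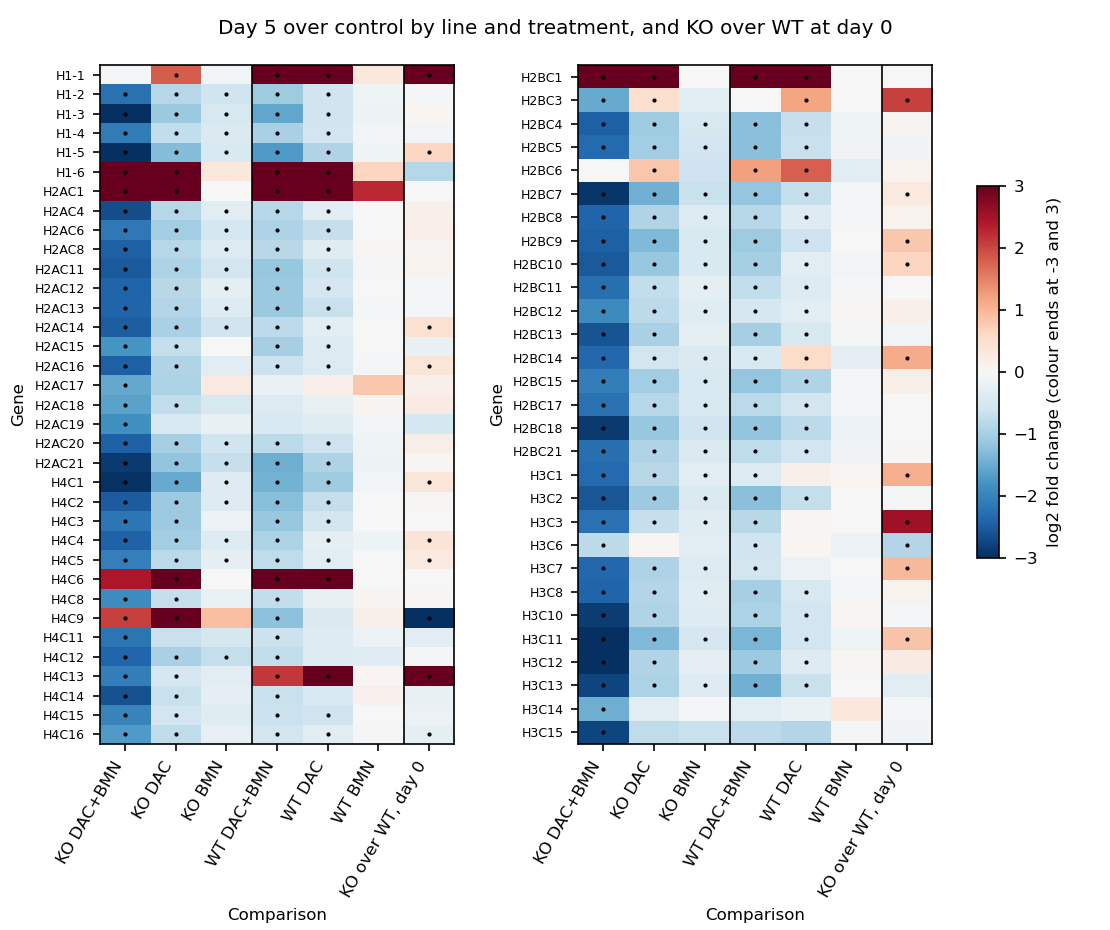
log2 fold changes of the 64 tested genes, grouped by histone type, at day 5 over control under DAC+BMN, DAC and BMN in KO and then WT cells, and for KO over WT at day 0; points mark an adjusted p under 0.05 and colours end at -3 and 3. The KO DAC+BMN column has the most genes lower, 57 of 64, and the copies with little RNA in the controls, such as H1-6 and H2BC1, which were tested because of their counts under DAC, have the largest positive values.

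The combination was set against each drug at day 5 in comparisons added after the values were seen. Over DAC alone, 63 of 64 genes were lower in KO and 45 in WT cells, against 11.8% and 5.52% of all genes. By edgeR 0 were higher in either line, against 10.5% and 6.77%, with 0 higher at an unadjusted p under 0.05 and 0 by DESeq2. H1-2 had 151 and 156 CPM under DAC+BMN in KO cells, against 399 and 402 CPM under DAC (-1.38 ± 0.06, adjusted p = 1.08e-17). WT libraries held 336 and 367 CPM, against 494 and 479.9 CPM (-0.47 ± 0.06, adjusted p = 6.12e-07). Neither line overlapped. Over BMN alone, 57 genes were lower in KO and 49 in WT cells, against 17.8% and 15.7%. Those higher were 4 and 7, against 22.9% and 19.8%. The sum of all types was 2.68-fold below DAC and 3.79-fold below BMN in KO cells, and 1.38-fold and 1.92-fold below them in WT cells.

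The responses of the lines were compared by an interaction term, the KO response minus the WT response. Under DAC+BMN the KO response was lower for 55 of 64 genes and higher for 1, H4C9, against 9.54% and 7.23% of all genes. The median difference was -1.41 on the log2 scale. It was -1.15 ± 0.09, adjusted p = 7.06e-12 for H1-2, -1.40 ± 0.11, adjusted p = 5.30e-11 for H2AC11 and -1.51 ± 0.08, adjusted p = 3.46e-15 for H2BC21. It was -1.32 ± 0.14, adjusted p = 2.87e-08 for H3C2 and -1.29 ± 0.14, adjusted p = 1.25e-08 for H4C5. The followed gene of every histone type thus fell further in KO cells.

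Under DAC the KO response was lower for 25 genes and higher for 1, again H4C9, against 1.99% and 1.99% of all genes. Without WT DAC replicate 1 these 26 calls became 16, and with only the groups compared in the fit 10. Of the followed genes H2BC21 (-0.34 ± 0.08, adjusted p = 0.0106) and H4C5 (-0.49 ± 0.13, adjusted p = 0.0265) passed. Without WT DAC replicate 1 their adjusted p was 0.104 and 0.0983, over ranges of 0.00326 to 0.353 and 0.000360 to 0.304. Leaving out KO DAC replicate 2 also ended the H2BC21 call (adjusted p = 0.0683), and leaving out KO control replicate 1, KO DAC replicate 1, WT control replicate 2 or WT DAC replicate 2 that of H4C5. H3C1 had 59.7 and 60.4 CPM in KO DAC cells, against 98.8 and 114 CPM in KO controls, and 56.9 and 55.1 CPM in WT DAC cells, against 46.7 and 53.4 CPM in WT controls (difference -0.99 ± 0.14, adjusted p = 6.84e-06).

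Under BMN the KO response was lower for 7 genes, against 0.439% of all genes, with 38 at an unadjusted p under 0.05 and 11 by DESeq2. It was higher for 0 by edgeR, against 0.0666%, with 0 at an unadjusted p under 0.05 and 0 by DESeq2. The count rested on single libraries: it was 26 without WT control replicate 2, and without any one of the other 7 libraries it was 1 to 4. For H1-2 the difference was -0.45 ± 0.09, adjusted p = 0.00484, a call lost without KO BMN replicate 1 (adjusted p = 0.0687) or WT control replicate 1 (adjusted p = 0.0818), over a range of 0.000190 to 0.256.

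**Figure D3:**
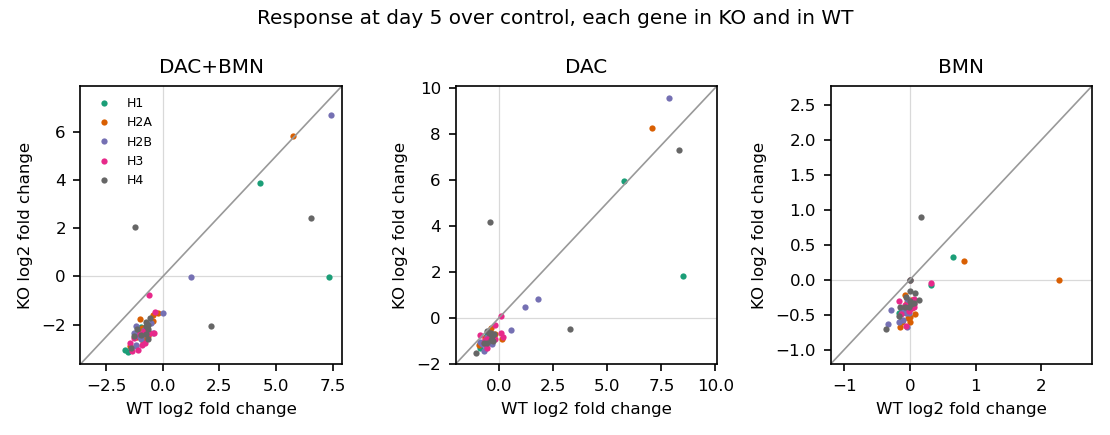
Each tested gene's log2 fold change at day 5 over control in KO cells (vertical) against that in WT cells (horizontal), under DAC+BMN, DAC and BMN, coloured by histone type, with a grey line of equal response. Below the line lie 62, 58 and 61 of the 64 genes, whether or not the difference passed the test, a count that was not made over all genes. The 64 share the same control libraries, and copies with 0 counts in the controls are among them. The difference passed as lower for 55, 25 and 7 genes. The median difference over all genes tested was 0.02, 0.0004 and -0.01 on the log2 scale.

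After day 5 the KO cells under DAC+BMN regained much of their histone RNA. The sum of all types stood at 1604 and 1626 CPM on day 5, on day 16 at 5336 and 5144 CPM and on day 26 at 5420 and 5595 CPM. At day 26 over day 5, 54 of 64 genes were higher and 1, H2BC6, was lower, against 21.6% and 21.1% (42.7% either way) of all genes. H1-3 had 116 and 121 CPM at day 26, against 14.4 and 14.3 CPM at day 5 (3.05 ± 0.09, adjusted p = 1.52e-23). H3C2 had 191 and 206 CPM at day 26, against 70.2 and 70.9 CPM at day 5 (1.49 ± 0.11, adjusted p = 2.00e-13). For comparison, KO controls had 124 and 129 CPM of H1-3 and 378 and 459 CPM of H3C2. The H2BC6 call was lost without KO DAC+BMN day 5 replicate 2 (adjusted p = 0.268, range 0.00378 to 0.268).

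In WT cells under DAC+BMN the sum stood at 3462 and 4025 CPM on day 5, on day 16 at 4564 and 4459 CPM and on day 26 at 4799 and 5070 CPM. At day 26 over day 5, 33 genes were higher and 10 lower, against 18.0% and 17.9% (35.9% either way) of all genes. H1-2 had 524 and 564 CPM at day 26, against 336 and 367 CPM at day 5 (0.63 ± 0.06, adjusted p = 5.20e-10). H3C3 had 30.9 and 36.4 CPM, against 7.15 and 7.96 CPM (2.15 ± 0.13, adjusted p = 1.92e-14). Both were without overlap. H3C2 had 173 and 188 CPM, against 166 and 192 CPM, overlapping (0.01 ± 0.10, adjusted p = 0.942), a value that turned below 0 under several alternatives.

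Under DAC alone the KO sum stood at 4313 and 4351 CPM on day 5, on day 16 at 4682 and 4699 CPM and on day 26 at 3787 and 3949 CPM. At day 26 over day 5, 6 genes were higher and 26 lower, against 18.1% and 17.8% (35.9% either way) of all genes. The H3 sum was 390.0 and 416 CPM at day 26, against 581 and 548 CPM at day 5, without overlap. H3C13 (-1.37 ± 0.14, adjusted p = 3.14e-09) and H3C2 (-0.60 ± 0.10, adjusted p = 1.91e-05) fell, while H1-3 (0.61 ± 0.08, adjusted p = 9.69e-08) and H2BC21 (0.46 ± 0.06, adjusted p = 1.13e-07) rose. H3C13 is one of the 15 uncertain copies, with 80.4% of its words shared. In WT cells 12 genes were higher and 15 lower at day 26, against 12.6% and 9.14% (21.7% either way). These 27 calls became 17 without WT DAC day 5 replicate 2, and the WT sums of all types overlapped between the days. By type, the WT H3 sum was 458 and 573 CPM at day 26, against 668 and 609.5 CPM at day 5, without overlap (log2 ratio -0.31). The WT sums of H2B (0.18) and H4 (-0.10) did not overlap either.

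Under BMN alone the WT sum stood at 7138 and 7247 CPM on day 5, on day 16 at 6614 and 6594 CPM and on day 26 at 5622 and 6224 CPM. At day 26 over day 5, 38 WT genes were lower, against 10.3% of all genes (22.0% either way). By edgeR 0 were higher, against 11.7%, with 0 at an unadjusted p under 0.05 and 0 by DESeq2. The 38 calls became 23 without day 5 replicate 1, 17 without day 5 replicate 2 and 12 without day 26 replicate 1. H3C3 had 6.12 and 5.84 CPM at day 26, against 12.0 and 14.5 CPM at day 5 (-1.15 ± 0.15, adjusted p = 1.34e-06). In KO cells 10 genes were higher and 9 lower, against 8.95% and 9.38%. Those 19 calls became 7 without day 5 replicate 1, 10 without day 26 replicate 1 and 6 without day 26 replicate 2.

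Over the mean of the 3 days, DAC+BMN was below DAC for 48 genes in KO and 47 in WT cells, against 11.8% and 12.8% of all genes. By edgeR 0 were above it, against 10.9% and 10.2%, with 0 at an unadjusted p under 0.05 and 0 by DESeq2 in each line. In KO cells the sums crossed, with both DAC+BMN libraries below both DAC libraries at day 5 and above them at days 16 and 26. DAC was below BMN for 46 genes in KO and 33 in WT cells, against 23.0% and 19.4%, and above it for 8 and 11, against 28.5% and 23.3% (51.5% and 42.7% either way). The genes above BMN include H1-6 in both lines, H2AC1 and H2BC1 in KO and H4C6 in WT cells. These copies passed the filter on low counts only through libraries given DAC, so their calls over BMN were largely fixed by it.

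A small set of copies went against the rest. Under 1 CPM were 11 genes in KO controls and 12 in WT controls, 10 of them in both, and 5 of each were not tested. Of these low copies, H1-6, H2AC1 and H2BC1 are known mainly from the testis. H1-6, H2AC1, H2BC1 and H4C6 passed the filter on low counts only through libraries given DAC. A call for them at day 5 over control, or over BMN, was thus largely fixed by the filter. They are therefore described by their counts, and the counts given above of genes raised under DAC or DAC+BMN, over control or over BMN, include them. Counts of genes lower at day 26 than at day 5 under DAC, or lower under DAC+BMN than under DAC, also hold some of them. Of the genes raised by DAC, 5 of 8 in KO and 6 of 9 in WT cells were low copies. The others were H1-1, H2BC3 and H2BC6 in KO and H2BC3, H2BC6 and H2BC14 in WT cells, named here after their values were seen. H2BC6 had 6.76 and 6.4 CPM in KO DAC cells, against 4.16 and 3.25 CPM in KO controls (0.83 ± 0.21, adjusted p = 0.00222), and 11.2 and 12.8 CPM in WT DAC cells, against 3.68 and 3.26 CPM in WT controls (1.79 ± 0.20, adjusted p = 9.10e-09). H2BC3 had 12.6 and 12.1 CPM in KO DAC cells, against 9.01 and 8.71 CPM in KO controls (0.48 ± 0.13, adjusted p = 0.00380), and 4.91 and 4.83 CPM in WT DAC cells, against 2.52 and 1.76 CPM in WT controls (1.18 ± 0.17, adjusted p = 1.78e-06). H2BC14 had 20.9 and 16.8 CPM in WT DAC cells, against 13.1 and 12.5 CPM in WT controls (0.55 ± 0.14, adjusted p = 0.00219). None of these pairs of groups overlapped. The H2BC6 call in KO cells was lost without KO control replicate 2 (adjusted p = 0.0517, range 0.00155 to 0.0517) and the H2BC14 call without WT DAC replicate 1 (adjusted p = 0.0857, range 0.000647 to 0.0857). H2AC17 did not pass the test under DAC in either line, and it fell under DAC+BMN in KO cells.

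The promoter windows of 6 copies that had under 1 CPM in a control and more under DAC, and of 2 copies that were high in both lines, are shown for comparison, each 5′ to 3′ on the gene's strand with CG in capitals.
H1-1 (chr6:26017738-26018037, minus strand): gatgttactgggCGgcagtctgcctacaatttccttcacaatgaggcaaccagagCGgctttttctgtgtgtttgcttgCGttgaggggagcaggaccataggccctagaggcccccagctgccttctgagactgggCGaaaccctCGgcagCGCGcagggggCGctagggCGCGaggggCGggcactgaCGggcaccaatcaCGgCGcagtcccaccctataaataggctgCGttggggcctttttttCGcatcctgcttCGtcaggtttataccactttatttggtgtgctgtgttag
H4C13 (chr6:27873485-27873784, minus strand): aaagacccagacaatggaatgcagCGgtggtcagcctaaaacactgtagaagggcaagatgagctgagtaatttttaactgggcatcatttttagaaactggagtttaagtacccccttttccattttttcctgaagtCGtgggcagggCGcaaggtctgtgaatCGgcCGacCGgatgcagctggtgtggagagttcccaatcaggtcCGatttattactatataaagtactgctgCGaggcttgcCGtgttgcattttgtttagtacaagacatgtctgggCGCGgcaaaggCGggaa
H4C9 (chr6:27139032-27139331, plus strand): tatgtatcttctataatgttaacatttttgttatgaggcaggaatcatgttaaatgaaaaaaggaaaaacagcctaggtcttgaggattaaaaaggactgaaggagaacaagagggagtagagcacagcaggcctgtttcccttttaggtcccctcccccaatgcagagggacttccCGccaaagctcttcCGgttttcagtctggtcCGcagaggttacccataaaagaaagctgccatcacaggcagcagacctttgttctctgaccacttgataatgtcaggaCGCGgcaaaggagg
H4C6 (chr6:26240143-26240442, plus strand): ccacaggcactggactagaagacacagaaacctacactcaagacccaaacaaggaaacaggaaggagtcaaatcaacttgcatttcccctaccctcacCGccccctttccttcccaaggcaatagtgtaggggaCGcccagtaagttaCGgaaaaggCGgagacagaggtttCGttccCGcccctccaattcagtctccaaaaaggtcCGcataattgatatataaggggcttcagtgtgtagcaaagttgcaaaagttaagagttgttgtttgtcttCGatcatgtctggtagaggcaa
H2BC1 (chr6:25726527-25726826, plus strand): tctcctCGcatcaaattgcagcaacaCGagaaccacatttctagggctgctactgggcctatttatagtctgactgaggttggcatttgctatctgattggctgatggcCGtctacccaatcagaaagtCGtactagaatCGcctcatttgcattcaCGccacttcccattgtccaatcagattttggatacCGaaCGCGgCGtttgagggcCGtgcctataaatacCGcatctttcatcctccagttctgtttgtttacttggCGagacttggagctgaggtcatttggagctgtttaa
H1-6 (chr6:26108086-26108385, minus strand): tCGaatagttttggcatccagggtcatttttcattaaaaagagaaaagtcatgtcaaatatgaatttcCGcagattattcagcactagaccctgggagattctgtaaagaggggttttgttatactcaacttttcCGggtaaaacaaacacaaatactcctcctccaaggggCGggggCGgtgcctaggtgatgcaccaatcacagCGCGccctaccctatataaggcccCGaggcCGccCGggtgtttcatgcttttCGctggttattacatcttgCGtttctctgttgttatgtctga
H1-2 (chr6:26056421-26056720, minus strand): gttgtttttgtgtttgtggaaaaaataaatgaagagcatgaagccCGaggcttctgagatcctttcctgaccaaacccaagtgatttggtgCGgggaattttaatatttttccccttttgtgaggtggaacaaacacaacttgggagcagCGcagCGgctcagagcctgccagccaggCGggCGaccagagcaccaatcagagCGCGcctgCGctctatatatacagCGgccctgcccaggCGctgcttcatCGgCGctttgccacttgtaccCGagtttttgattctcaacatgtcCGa
H4C5 (chr6:26204360-26204659, plus strand): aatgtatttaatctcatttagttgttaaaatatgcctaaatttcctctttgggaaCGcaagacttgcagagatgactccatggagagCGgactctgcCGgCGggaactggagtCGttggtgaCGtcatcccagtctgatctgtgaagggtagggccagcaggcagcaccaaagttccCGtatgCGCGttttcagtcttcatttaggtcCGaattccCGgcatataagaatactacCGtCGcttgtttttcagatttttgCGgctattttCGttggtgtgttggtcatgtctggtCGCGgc
H1-1, H4C13, H4C9, H4C6, H2BC1 and H1-6 held 17, 12, 5, 8, 13 and 12 CG in these windows, and H1-2 and H4C5 held 15 and 17. H2BC1 and H2AC1 start back to back, so their windows overlap. DNA methylation was not measured in these libraries.

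H1-1 had 597 and 627 counts in WT DAC cells, against 2 and 1 in WT controls, a ratio of 391-fold (95% exact interval 133 to 1898). In KO cells it had 37.1 and 34.5 CPM under DAC, against 9.28 and 10.9 CPM in KO controls (1.83 ± 0.12, adjusted p = 1.63e-14). The WT level under DAC, 30.9 and 29.1 CPM, was thus near the KO level under DAC. Under DAC+BMN the WT ratio was 174-fold (95% exact interval 59.1 to 846), while KO DAC+BMN cells had 9.46 and 10.3 CPM, overlapping their control.

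H4C13 had 5.33 and 5.11 CPM in WT DAC cells, against 0.655 and 0.414 CPM in WT controls (3.27 ± 0.26, adjusted p = 2.46e-12). In KO cells it had 18.9 and 21.4 CPM under DAC, against 30.8 and 26.2 CPM in KO controls (-0.50 ± 0.13, adjusted p = 0.00219). H4C9 showed the opposite arrangement of lines. It had 49 and 45 counts in KO DAC cells, against 3 and 2 in KO controls, a ratio of 18.7-fold (95% exact interval 7.72 to 58.8). Among WT cells it had 7.91 and 7.10 CPM under DAC, against 10.5 and 9.74 CPM in WT controls (-0.43 ± 0.17, adjusted p = 0.0519). Each of these H4 copies rose under DAC in the line whose control had under 1 CPM of it.

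H1-6, the testis linker histone, had 96 and 106 counts in KO DAC cells, against 0 and 3 in KO controls, a ratio of 66.8-fold (95% exact interval 22.5 to 326.8). In WT DAC cells it had 157 and 194, against 2 and 4 in WT controls, a ratio of 56.0-fold (95% exact interval 25.5 to 153.7). H2BC1, H2AC1 and H4C6 had 0 counts in all 4 controls. H2BC1 had 82 and 96 counts in KO DAC and 28 and 31 in WT DAC cells, at least 29.4-fold and 9.42-fold higher against a floor of 3 counts per library. H2AC1 had 28 and 42 counts in KO DAC and 14 and 21 in WT DAC cells, at least 11.6-fold and 5.54-fold higher. H4C6 had 12 and 24 counts in KO DAC and 46 and 35 in WT DAC cells, at least 5.93-fold and 13.1-fold higher. Under BMN at day 5 these 3 copies had 0 or 1 counts in every library of both lines. Setting the copies at 0 in the controls at their lower bound left the medians over the 64 genes the same. That outcome was fixed in advance, because the bounds also lay above the medians. Under DAC+BMN, KO cells had 15 and 9 counts of H2BC1 and 0 and 1 of H4C6. Markers of other cells were also higher in libraries given DAC. The 7 markers summed to 0.903 to 5.61 CPM in libraries given DAC with or without BMN, to 0.0996 to 0.527 CPM under BMN alone and to 0.202 to 0.606 CPM in controls. From day 5 to day 26 under DAC, WT cells went from 1.996 and 2.379 CPM of this sum to 3.176 and 3.494 CPM. Over the same days their H1-6 counts went from 157 and 194 to 67 and 69, and those of KO cells from 96 and 106 to 45 and 59. For KO cells under DAC the marker sum was lower at day 26, with 0.903 and 1.543 CPM, against 2.347 and 3.791 CPM at day 5. Most of this sum at day 5 was DES, a muscle intermediate filament gene, which averaged 2.36 ± 0.9299 CPM in KO DAC cells and 0.136 ± 0.0366 CPM in KO controls (SD, n = 2 each). PTPRC and CD3E, which mark leukocytes and T cells, stayed at or below 0.279 and 0.221 CPM in every library. The part of other cells in these values was not tested.

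**Figure D4:**
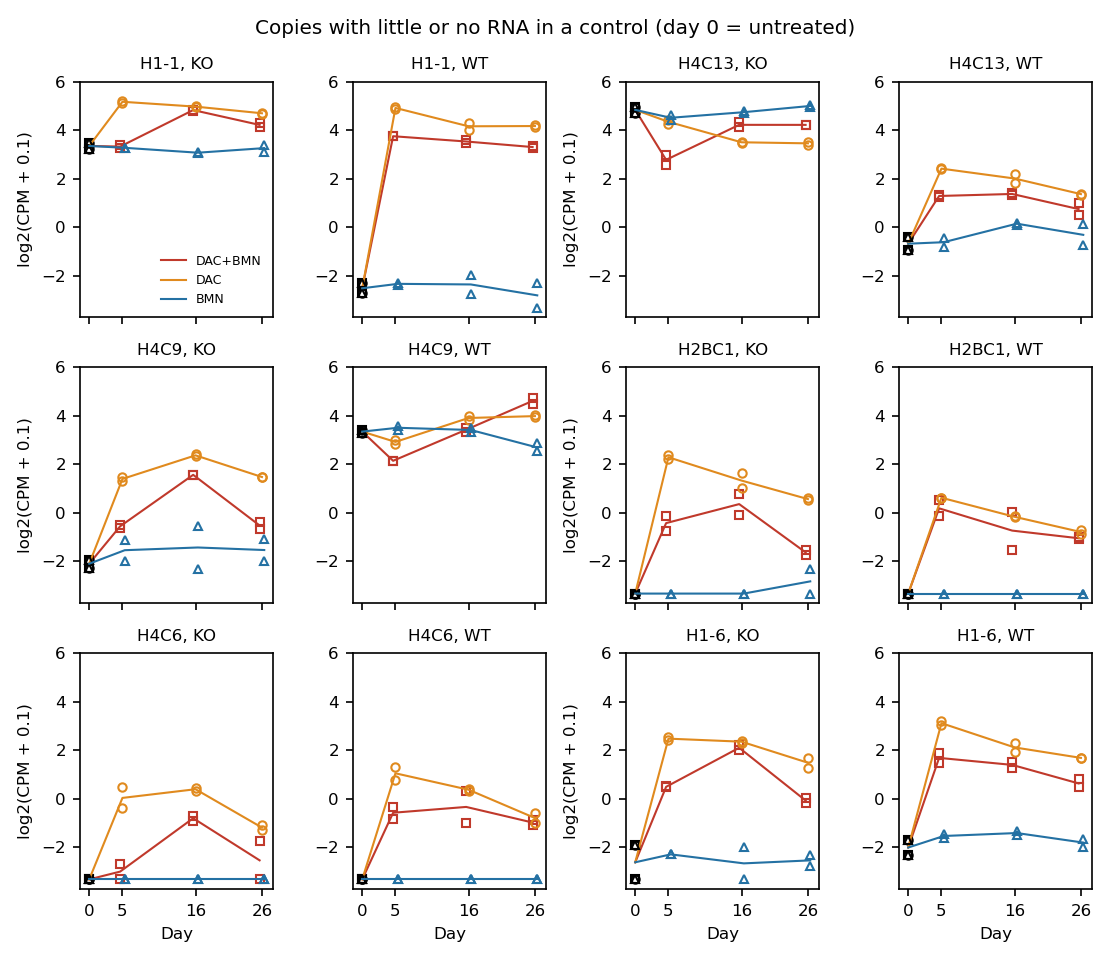
log2(CPM + 0.1) of 6 copies with little RNA in a control, by day and treatment, with KO left of WT for each gene, points for libraries and lines through the means of 2 replicates. Under DAC at day 5, H1-1 and H4C13 in WT, H4C9 in KO and H2BC1, H4C6 and H1-6 in both lines lie above their day 0 level.

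Genes that make or handle histone mRNA had smaller median changes than the histone genes. Of 21 genes of histone transcription and 3′ end processing, 1 rose and 7 fell in KO DAC+BMN cells at day 5 and 2 rose and 2 fell in WT cells, with median log2 fold changes of -0.13 and -0.03. Of all genes, 27.1% rose and 22.2% fell in KO and 21.2% rose and 18.2% fell in WT cells, so the falls in this list were not far above that share in KO cells and below it in WT cells. In KO cells E2F1, a transcription factor of S phase entry (-0.68 ± 0.11, adjusted p = 3.26e-06), and LSM11, a U7 snRNP protein (-0.42 ± 0.13, adjusted p = 0.00938), fell. Of 21 histone chaperones and assembly factors, 13 fell and 1 rose in KO and 10 fell and 1 rose in WT cells, with medians of -0.43 and -0.19. In KO cells SSRP1, a subunit of FACT (-1.11 ± 0.07, adjusted p = 2.11e-14), and CHAF1A, the large subunit of CAF-1 (-0.90 ± 0.08, adjusted p = 5.31e-11), fell.

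S phase genes were mostly lower under DAC+BMN at day 5, as the histone genes were, but not in every comparison. Of 35 listed, 29 fell in KO DAC+BMN cells at day 5, and 19 fell and 1 rose in WT cells, with medians of -0.67 and -0.24, while 22.2% of all genes fell in KO and 18.2% in WT cells. MCM6, part of the replicative helicase, averaged 56.2 ± 0.785 CPM in KO DAC+BMN cells and 163 ± 5.69 CPM in KO controls (SD, n = 2 each; by edgeR -1.54 ± 0.06, adjusted p = 1.27e-20). Under DAC at day 5, 18 fell and 1 rose in KO and 10 fell and 3 rose in WT cells, with medians of -0.22 and -0.12, while 16% and 12.2% of all genes fell. At day 26 over day 5 under DAC+BMN, 29 were higher and 1 lower in KO cells, against 21.6% and 21.1% of all genes. At day 5 under BMN, 8 S phase genes and 38 of 64 histone genes fell in KO cells, and 0 of either list rose. Of all genes, 6.65% fell and 5.07% rose there. In WT cells 0 of either list were called, against 0.186% of all genes. Under BMN in WT cells, 6 S phase genes were higher and 3 lower at day 26 over day 5 (median 0.03), near the 11.7% and 10.3% of all genes, while 38 of 64 histone genes were lower (median -0.30). The difference between the lists was not tested. CDKN1A, which encodes the cell cycle inhibitor p21 and was chosen after its values were seen, had 428 and 462 CPM in KO DAC+BMN cells at day 5, against 116 and 124 CPM in KO controls (1.89 ± 0.09, adjusted p = 5.59e-19). In WT cells it had 276 and 309 CPM, against 77.6 and 92.3 CPM (1.79 ± 0.09, adjusted p = 3.62e-18). It also rose under BMN alone, by 0.52 ± 0.08 in KO (adjusted p = 6.61e-05) and 0.80 ± 0.09 in WT cells (adjusted p = 1.86e-06), a comparison whose histone counts are given above. Under DAC, where 50 and 41 histone genes fell, CDKN1A did not pass in KO (0.14 ± 0.08, adjusted p = 0.209) or in WT cells (0.08 ± 0.09, adjusted p = 0.561). The part of cell cycle state in the histone values was not tested.

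Histone genes outside the replication-dependent set, listed as having polyadenylated transcripts though not always only these, were more often lower than higher. Of the 12 that were tested, 6 fell and 2 rose in KO, and 6 fell and 2 rose in WT cells under DAC+BMN at day 5, with median log2 fold changes of -0.23 and -0.26. The shares of all genes that fell were 22.2% in KO and 18.2% in WT cells.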

How the data were processed

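Gene-level read counts of 40 libraries were taken as deposited. Per the file headers, the authors made these counts with featureCounts 1.5.0-p1 on Ensembl 104 (GRCh38), counting primary alignments of mapping quality 20 or more on strand setting 1, without duplicates and without assigning a read to more than 1 gene. STAR is known here from alignment names alone. Reads of near-identical histone copies can be lost or split by these settings, so levels were also summed per histone type, which does not regain lost reads. The submitters' processing notes also name FastQC, Trimmomatic and Partek. The 37 mitochondrial genes had 0 counts in all libraries. Libraries were placed in groups by their labels.

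The 22527 genes kept by filterByExpr were fitted in edgeR 4.0.16 (R 4.3.3) with TMM scaling and 1 mean per group over all 40 libraries. The quasi-likelihood test was used, with Benjamini-Hochberg adjustment over all genes tested in a comparison and a threshold of 0.05. Values in brackets after levels are log2 fold changes ± SE with this adjusted p. Sums have no test. The alternatives were DESeq2 1.42.0, its size factors in edgeR, library totals without TMM, no filter, only the groups compared, the replicate number as a block, the ending of the alignment name as a covariate, and each library left out. Scripts were tested on simulated data. Same-numbered libraries did not deviate together: over 190 pairs of groups the correlation ran from -0.174 to 0.237, and 10 exceeded 0.1, so the numbers were not taken to pair libraries.

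Named were the most abundant gene of each type and, per comparison, up to 4 rises and 4 falls whose higher mean reached 1 CPM, and the testis genes by their counts. Of the lists of other genes, up to 2 examples were named per comparison. One result of these lists is not reported here. The members and lists were chosen with earlier results of these data known, and 4 of the 24 comparisons were added after seeing the values.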

Additional observations from a re-analysis of the deposited data

Results flagged for a closer look

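The results below differed between the lines by a test of the difference itself, the KO minus WT response at day 5 over control in edgeR's interaction term, given on the log2 scale. Under DAC+BMN the difference was -1.15 ± 0.09, adjusted p = 7.06e-12 for H1-2, -1.40 ± 0.11, adjusted p = 5.30e-11 for H2AC11 and -1.51 ± 0.08, adjusted p = 3.46e-15 for H2BC21. It was -1.32 ± 0.14, adjusted p = 2.87e-08 for H3C2, -1.29 ± 0.14, adjusted p = 1.25e-08 for H4C5 and -1.97 ± 0.18, adjusted p = 5.70e-10 for H3C12. H3C15, whose 50-base words are all shared with another gene, had -1.96 ± 0.61, adjusted p = 0.0249, and its p ran over 0.00477 to 0.150 across its alternatives.

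Copies with little RNA in a control had the largest differences, and their size depends on how few counts the control held. Under DAC+BMN they were -7.36 ± 0.35, adjusted p = 5.06e-17 for H1-1, -4.18 ± 0.32, adjusted p = 1.25e-11 for H4C13 and 3.27 ± 0.61, adjusted p = 0.000218 for H4C9. Under DAC they were -6.67 ± 0.35, adjusted p = 1.35e-15 for H1-1, -3.76 ± 0.29, adjusted p = 2.98e-11 for H4C13 and 4.59 ± 0.47, adjusted p = 2.14e-08 for H4C9.

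Under DAC the other differences were -1.11 ± 0.19, adjusted p = 0.000214 for H2BC14, -0.99 ± 0.14, adjusted p = 6.84e-06 for H3C1, -0.34 ± 0.08, adjusted p = 0.0106 for H2BC21 and -0.49 ± 0.13, adjusted p = 0.0265 for H4C5. Under BMN they were -0.45 ± 0.09, adjusted p = 0.00484 for H1-2, -0.52 ± 0.11, adjusted p = 0.0166 for H2AC11 and -0.34 ± 0.08, adjusted p = 0.0363 for H2BC21. H2BC7 had -0.64 ± 0.12, adjusted p = 0.00537 and H2BC5 -0.47 ± 0.09, adjusted p = 0.00492 under BMN. Each of these 5 BMN calls was lost when at least 1 library was left out and when only the groups compared were fitted, with adjusted p up to 0.256, 0.189, 0.41, 0.172 and 0.172 over their alternatives. There are 2 replicates a group, too few for a test of single outlying libraries.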

How the results depend on the processing

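Without any 1 library the counts of genes called were 59 to 61 under KO DAC+BMN, 52 to 57 under WT DAC+BMN, 55 to 58 under KO DAC and 42 to 51 under WT DAC. They were 25 to 37 for KO BMN at day 5, 17 to 21, 12 to 40 and 6 to 13 for day 26 over day 5 under WT DAC, WT BMN and KO BMN, and 16 to 35 and 1 to 26 for the differences between the lines under DAC and BMN. For the difference under DAC+BMN they were 55 to 58. With only the groups compared in the fit, the counts were 14 for WT DAC and 29 for KO BMN at day 26 over day 5, and 10 and 0 for the differences under DAC and BMN; the last was 11 by DESeq2 and 15 with no filter. The cause was not tested. With library totals in place of TMM, the log2 ratio of the sum of all types in KO cells was -2.30 for DAC+BMN at day 5 over control. For day 26 over day 5 it was -0.10 under DAC, against -0.16 with TMM, and 1.68 under DAC+BMN, and at day 5 it was -1.37 and -1.89 for DAC+BMN over DAC and over BMN. Without the most abundant gene of each type the last was -1.96. With the replicate number as a block the counts were 61 for KO DAC+BMN at day 5 and 21 for KO over WT, and the block changed no call of a named gene. Named genes that turned their sign all had values close to 0 that had not passed. Sums, which have no test, could turn as well. Without 1 library, the log2 ratio of the sum of all types ran over -0.125 to 0.00487 for WT BMN at day 5 over control. For WT DAC at day 26 over day 5 that ratio ran over -0.0546 to 0.124. Leaving out 1 library each, the log2 fold change ran over -0.137 to 0.0624 for H1-2 and -0.200 to 0.164 for H3C2 in KO over WT, over -0.183 to 0.181 for H3C2, -0.125 to 0.0600 for H2AC11 and -0.128 to 0.156 for H4C5 in WT BMN at day 5, over -0.265 to 0.0112 for H2AC11 and -0.166 to 0.0265 for H4C5 in WT DAC at day 26 over day 5, and over -0.0861 to 0.118 for H3C2 in WT DAC+BMN at day 26 over day 5. H2BC21 in KO over WT was -0.0382 with library totals. H3C2 in WT DAC+BMN at day 26 over day 5 was -0.00211 by DESeq2, -0.00214 with its size factors, -0.00204 with only the groups compared and -0.0323 with the alignment name as a covariate. Copies with a few counts in a control are limited by depth, and 2 replicates a group limit the rest.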
